A study of Mus musculus with 18 samples.

Results

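The mitochondrial carrier family is a family of membrane proteins that move nucleotides, phosphate, amino acids, organic acids, iron and cofactors across the inner mitochondrial membrane. Its members were taken as the genes whose symbol in the platform annotation is Slc25a followed by a number, without Slc25a20, or is Ucp1, Ucp2 or Ucp3, with the brightest probe set standing for each gene. This gave 47 members among the 19938 genes of the arrays. Ucp2 was not analysed here. The rule itself uses no measured difference.

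Transcripts were measured on 18 mouse arrays that read along the whole transcript. They form 6 groups of 3, all from mice of a C57BL/6 background. Soleus, a slow postural muscle, and quadriceps, a mostly fast thigh muscle, were taken from mice with a skeletal-muscle Cre recombinase that tamoxifen switches on; all of them received tamoxifen for 3 days. The EglN1 KO group carried a floxed EglN1 gene and the EglN1 WT group did not, so Cre and tamoxifen are shared by both. Numbers in the labels, read here as mice, are the same for soleus and quadriceps: 3 KO and 3 WT mice. In a separate experiment, hearts of EglN1 WT mice given vehicle were set against hearts of mice given FG-4497, an inhibitor of the EglN enzymes, at 50 mg/kg into the peritoneum. The sources used here do not name the promoter that drives Cre, the ages and sexes of the mice or the time from FG-4497 to harvest. EglN1 is the prolyl hydroxylase that marks hypoxia-inducible factors for degradation, and the study asked how its loss or inhibition changes transcripts of muscle and heart.

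Each carrier protein has a repeated fold with a central binding site that opens in turn to each side of the membrane. Energy supply in muscle rests on the ADP/ATP carriers, which export ATP made in the matrix, and on the phosphate carrier, which imports phosphate. It rests too on the aspartate/glutamate carriers of the malate-aspartate shuttle, which brings reducing equivalents of glycolysis into mitochondria. Uncoupling proteins, glutathione and amino acid carriers, and the mitoferrins that import iron belong to the same family.

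Of the 47 members, 39 (83.0%) passed the filter on low values, against 66.8% to 67.4% of all genes in the 3 fits. Slc25a2, Slc25a14, Slc25a21, Slc25a31, Slc25a48, Slc25a53, Slc25a54 and Ucp1, the thermogenic uncoupling protein of brown fat, lay below it in muscle and in heart and were not tested. Ucp1 read between 5.30 and 5.68 on the log2 scale over the 18 arrays, under the filter levels of 6.19 in muscle and 6.26 in heart. Values are log2 intensities, which compare one probe set between arrays and do not rank genes against each other. A change of 1 on this scale is 2-fold. "Passed" means a Benjamini-Hochberg adjusted p under 0.05 over all genes tested in limma, whose p-values are quoted throughout. The labels call the samples biological replicates.

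Array medians lay between 6.68 and 6.81, and replicates of a group correlated at 0.986 to 0.995 across probe sets. All 11 cardiomyocyte markers were higher in heart than in either muscle, and all 10 slow fibre markers were higher in soleus than in quadriceps of WT mice. Fibre content varied among soleus samples: Myh4, the fastest fibre myosin, read between 8.99 and 13.31 in WT soleus and between 12.48 and 12.73 in KO soleus. In quadriceps the mean of the slow fibre markers ran from 7.63 to 8.79 in WT and from 7.62 to 9.42 in KO mice. The targeted gene, Egln1, did not pass the test in either muscle: its log2 difference, KO minus WT, was -0.20 (SE 0.07, adjusted p = 0.438) in soleus and -0.14 (SE 0.07, adjusted p = 0.470) in quadriceps, although its KO and WT arrays did not overlap in either. Which stretch of the transcript its probes read was not tested, so this value does not settle how complete the deletion was.

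The stretches upstream of 4 members on which the results turn are shown because these members carry the results below. They are Slc25a34, which rose in FG-4497 hearts, Slc25a36, which was lower in KO quadriceps, and Slc25a25 and Slc25a5, which separate the tissues in opposite directions. Each is read 5′ to 3′ on the strand of the gene and ends at the last base before the annotated gene. Sequences are from RefSeq on GRCm38.p6, of which 37 of the 47 members had an entry. Capitals mark the motifs searched.
Slc25a34, chr4:141623892-141624084, minus strand: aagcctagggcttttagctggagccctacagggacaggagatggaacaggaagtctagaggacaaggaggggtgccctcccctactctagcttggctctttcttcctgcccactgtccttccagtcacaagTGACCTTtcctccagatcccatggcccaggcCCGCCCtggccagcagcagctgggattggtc
Slc25a36, chr9:97111042-97111291, minus strand: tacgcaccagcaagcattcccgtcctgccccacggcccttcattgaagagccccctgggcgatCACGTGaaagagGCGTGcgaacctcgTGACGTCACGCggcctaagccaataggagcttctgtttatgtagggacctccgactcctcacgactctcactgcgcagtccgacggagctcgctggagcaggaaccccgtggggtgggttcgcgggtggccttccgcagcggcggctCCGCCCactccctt
Slc25a25, chr2:32451471-32451720, minus strand: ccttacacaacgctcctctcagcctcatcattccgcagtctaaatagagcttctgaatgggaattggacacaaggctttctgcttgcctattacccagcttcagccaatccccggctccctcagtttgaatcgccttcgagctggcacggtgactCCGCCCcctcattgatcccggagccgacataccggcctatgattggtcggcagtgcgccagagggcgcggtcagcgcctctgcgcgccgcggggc
Slc25a5, chrX:36795347-36795596, plus strand: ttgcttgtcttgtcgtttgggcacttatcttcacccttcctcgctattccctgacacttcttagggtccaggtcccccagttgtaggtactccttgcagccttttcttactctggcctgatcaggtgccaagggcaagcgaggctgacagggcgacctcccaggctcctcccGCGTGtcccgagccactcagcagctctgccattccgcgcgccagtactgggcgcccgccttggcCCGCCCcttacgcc

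Motifs were searched on both strands in the 250 bases before each annotated start, and a match describes letters, not a bound site. The core of the hypoxia response element, ACGTG, was found for 11 of 37 members (29.7%) and for 18.5% of the 27025 genes with a window, and its variant GCGTG for 21 members (56.8%) and 30.9% of genes. The GC box GGGCGG was present for 24 members (64.9%) and 35.4% of genes. The genes compared were not matched to the members for base composition, and its part in these shares was not tested. Slc25a36 holds CACGTG, which contains ACGTG on both strands, 2 copies of GCGTG, and the cyclic AMP response element TGACGTCA, whose last letters overlap the second of them. Only Slc25a36 and Slc25a25 among the members hold TGACGTCA (1.77% of genes), and in Slc25a25 it lies before an internal start, not in the stretch shown. Slc25a34 alone among the members holds AAGGTCA, the half-site of oestrogen-related receptors (4.7% of genes), and it holds neither hypoxia element. TATAAA was found for 2 members (5.41%) and 14.3% of genes, and TGACGCA for 2 members and 2% of genes. The MEF2 form and the NRF1 site searched were found for 0 members, against 0.407% and 0.877% of genes.

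**Figure D1:**
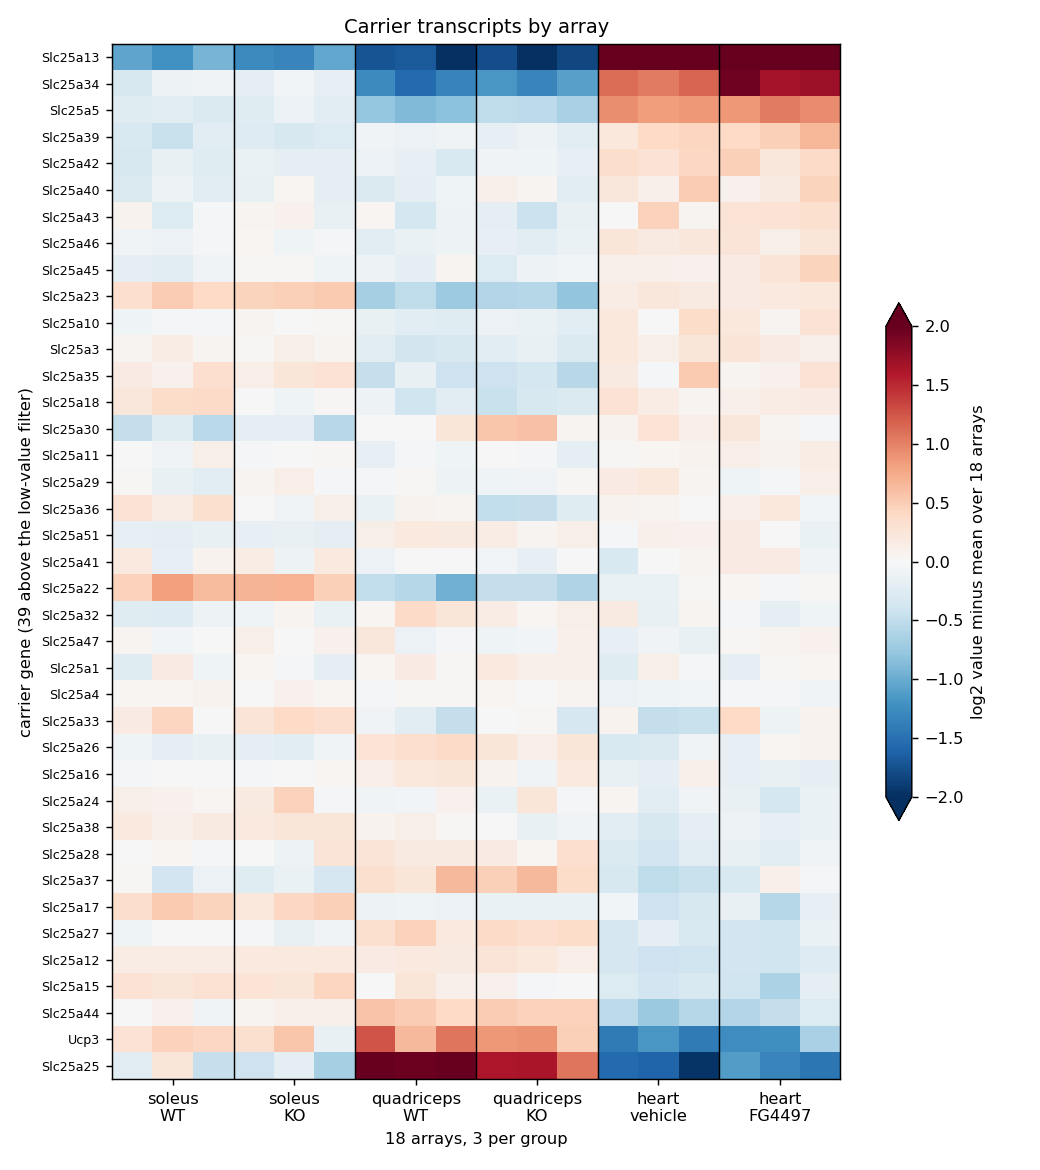
Log2 value of the 39 carrier genes above the filter minus the mean of each gene over all 18 arrays, one column per array and 3 arrays per group, ordered by the mean of the 6 heart arrays. Red is higher and blue lower than the mean of the gene. Slc25a13, Slc25a34 and Slc25a5 stand out as high in heart, and Ucp3 and Slc25a25 as low in heart and high in quadriceps.

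Carrier transcripts differed far more between tissues than between treatments, as the plot of all carriers by array shows. The range of the 6 group means was over 1 for 8 of the 39 members (20.5%), against 18.8% of all genes, and its median was 0.58 against 0.48. Arrays of bulk tissue cannot tell fewer cells of a type from less RNA per cell.

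Between soleus and quadriceps of WT mice, 23 of 39 members passed, 12 higher in soleus and 11 lower. Over all genes 45.7% passed, 21.3% higher and 24.4% lower, beside 59.0% of the members. The median difference of the members was 0.05, against -0.01 over all genes. In KO mice the same comparison gave 23 members, 15 higher and 8 lower, with 41.9% of all genes passing (21.9% higher and 20% lower). The WT and KO muscles come from different mice. Of the members that passed, 20 did so in both, all in the same direction (12 higher, 8 lower), which is 87.0% of each list. Over all genes 4706 passed in both, 77.3% of the WT list and 84.4% of the KO list. Slc25a16, Slc25a32 and Slc25a39 passed in WT alone, and Slc25a15, Slc25a38 and Slc25a46 in KO alone. No member passed for a difference of the KO effect between the muscles, and across the 39 members the WT and KO differences correlated at r = 0.973 (0.963 over all genes), a description across genes, which are not independent.

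**Figure D2:**
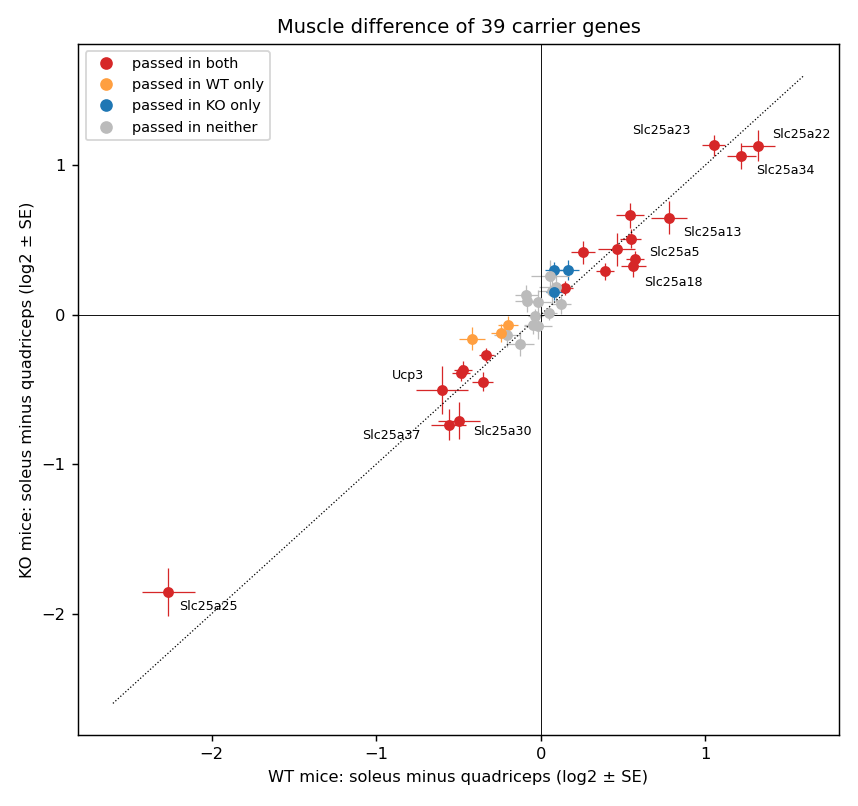
Soleus minus quadriceps (log2, with SE bars) of 39 carrier genes in WT mice (x axis) and KO mice (y axis); the dotted line marks equal differences and colours mark which test was passed. The points follow the line, with Slc25a25 at -2.26 and -1.86 and Slc25a22 at 1.32 and 1.13.

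Among the nucleotide and phosphate carriers, Slc25a25 set quadriceps apart. It encodes SCaMC-2, a calcium-activated carrier that exchanges ATP-Mg for phosphate. Its log2 values were 8.32, 8.77 and 8.07 in WT soleus, 8.12, 8.35 and 7.87 in KO soleus, 10.83, 10.49 and 10.62 in WT quadriceps and 10.14, 10.16 and 9.60 in KO quadriceps. Heart read 6.97, 6.93 and 6.57 with vehicle and 7.41, 7.21 and 7.08 with FG-4497. Every quadriceps array lay above every soleus array, and every soleus array above every heart array. WT soleus was below WT quadriceps by a log2 difference of -2.26 (SE 0.16, 4.80-fold, adjusted p = 1.45e-07), and vehicle heart was below WT quadriceps by -3.82 (SE 0.17, 14.2-fold, adjusted p = 1.12e-12). The gene lies at chr2:32414487-32451470 on GRCm38.p6.

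Its paralog Slc25a23, encoding SCaMC-3, ran the other way between the muscles. Its log2 values were 9.09, 9.26 and 9.16 in WT soleus and 8.09, 8.24 and 8.03 in WT quadriceps, without overlap. The difference was 1.05 (SE 0.07, 2.07-fold, adjusted p = 8.89e-08) in WT and 1.13 (SE 0.07, adjusted p = 5.46e-08) in KO mice. Vehicle heart, at 8.91, 8.98 and 8.94, lay between the muscles and passed against both. Slc25a24 (SCaMC-1) and Slc25a41, its calcium-independent relative, passed in neither muscle comparison and against neither muscle in heart. The 4 paralogs of this branch thus include one higher in soleus, one higher in quadriceps and a pair that did not pass. Of that pair, Slc25a41 read near the filter levels, with group means between 6.22 and 6.39, so it gives little information on a difference.

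Of the ADP/ATP carriers, one was nearly flat in array signal over the tissues and the other was not. Slc25a4, the form known from heart and skeletal muscle, read 13.76 to 13.88 over the 6 WT muscle arrays and 13.69, 13.71 and 13.75 in vehicle hearts. Heart minus WT soleus was -0.14 (SE 0.05, adjusted p = 0.0314), a call lost in 6 of 15 alternative settings, and heart minus WT quadriceps was -0.09 with an interval of -0.19 to 0.02. Slc25a4 signal was close to that of the cardiomyocyte marker Myh6 in vehicle hearts, 14.06 to 14.13. Whether values this high track RNA was not tested. Slc25a5, the form known from many other tissues, read 11.17, 11.18 and 11.12 in WT soleus, 10.63, 10.53 and 10.59 in WT quadriceps and 12.34, 12.25 and 12.28 in vehicle heart. All 3 tissues were separate: soleus exceeded quadriceps by 0.57 (SE 0.05, 1.49-fold, adjusted p = 2.35e-06), and heart exceeded soleus by 1.13 (SE 0.06, 2.19-fold, adjusted p = 5.13e-11) and quadriceps by 1.70 (SE 0.06, 3.26-fold, adjusted p = 1.03e-13). The other probe sets listed for Slc25a5 gave 1.04 and 1.18 for heart minus soleus and 1.61 and 1.75 for heart minus quadriceps, close to the one used; whether they also read near-identical copies of the gene was not tested.

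Slc25a3, the phosphate carrier that ATP synthesis depends on, was higher in soleus than in quadriceps (12.45, 12.53 and 12.45 against 12.16, 12.03 and 12.06). That difference was 0.39 (SE 0.05, 1.31-fold, adjusted p = 6.05e-05), and heart exceeded quadriceps by 0.49 (SE 0.06, adjusted p = 1.62e-06). Heart and soleus differed by 0.10, which did not pass (adjusted p = 0.175).

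**Figure D3:**
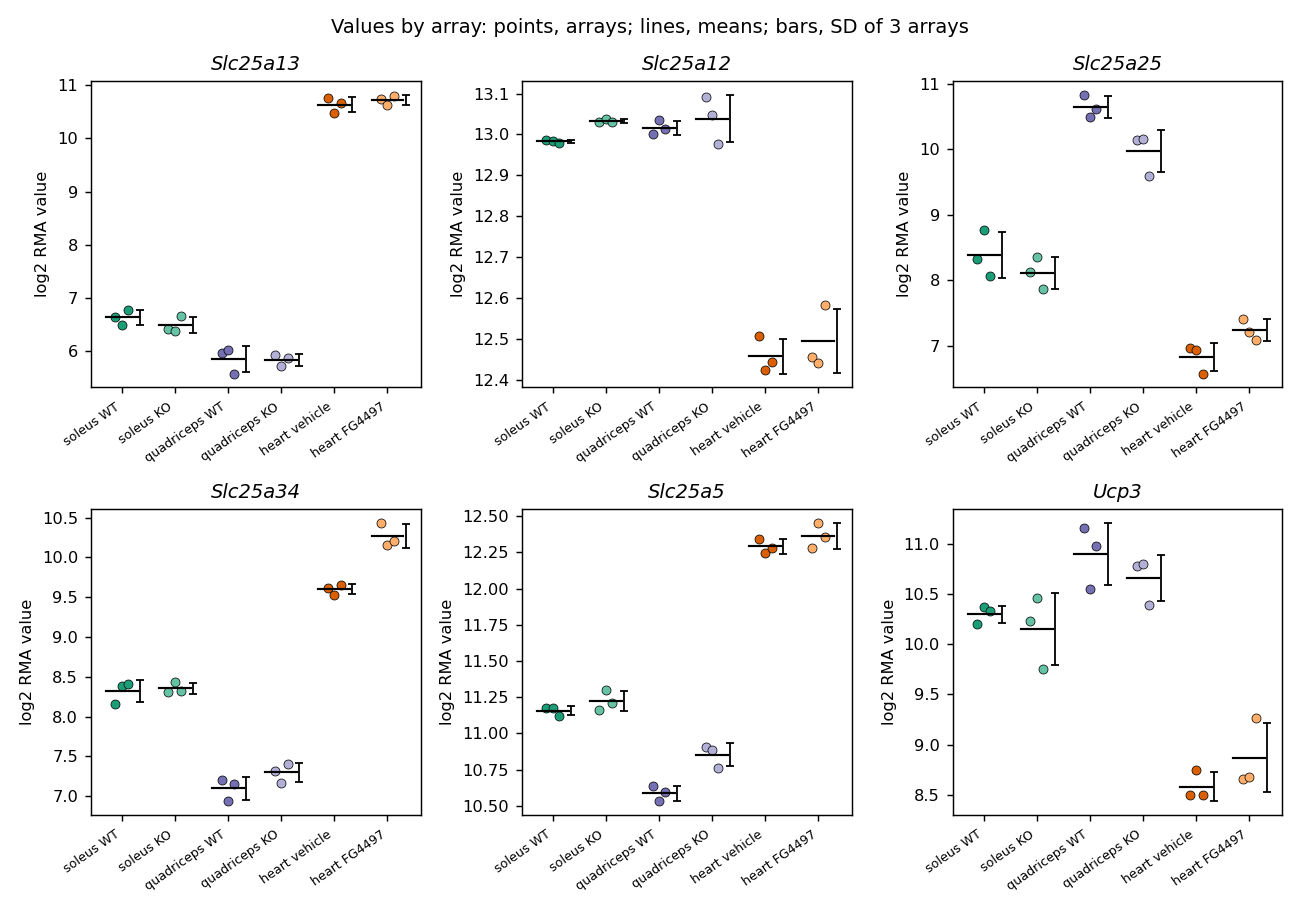
Log2 value on each array (points), group mean (line) and SD of 3 arrays (bar) of 6 carrier genes in the 6 groups; each panel has its own axis, which does not start at 0. Slc25a13 and Slc25a12, the paralogs of the aspartate/glutamate carrier, move in opposite directions between muscle and heart, and Slc25a34 is the one panel where FG-4497 hearts lie apart from vehicle hearts by an amount that passed the test.

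The aspartate/glutamate carriers gave the widest range of the family. Slc25a13 encodes citrin, known as the main form of liver, and lies at chr6:6041218-6217304. It read 6.65, 6.49 and 6.77 in WT soleus, 5.97, 6.02 and 5.57 in WT quadriceps and 10.76, 10.48 and 10.67 in vehicle hearts. Heart stood far above both muscles, by 4.0 over soleus (SE 0.12, 16.0-fold, adjusted p = 2.61e-15) and by at least 4.41 over quadriceps, where every array lay below the filter level (at least 21.2-fold; the measured difference was 4.78, adjusted p = 1.76e-16). Soleus exceeded quadriceps by at least 0.44 in WT (adjusted p = 6.39e-05) and at least 0.29 in KO mice (adjusted p = 0.000333). Slc25a13 passed the low-value filters only through the group where it reads high, soleus in the muscle fit and heart in the fit of all arrays. Its p-values therefore only describe these values and are not separate support. Slc25a12 encodes aralar, known as the main form of skeletal muscle and brain, and it was lower in heart: 12.51, 12.42 and 12.44, against 12.99, 12.98 and 12.98 in WT soleus and 13.00, 13.03 and 13.01 in WT quadriceps. The differences were -0.53 (SE 0.06, 1.44-fold, adjusted p = 2.60e-07) and -0.56 (SE 0.06, 1.47-fold, adjusted p = 7.38e-08). Between the muscles Slc25a12 did not pass. Slc25a11, the oxoglutarate carrier that completes the malate-aspartate shuttle, passed in no tissue comparison and read 12.48 to 12.76 over the WT muscle arrays and 12.67 to 12.71 in vehicle hearts.

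The glutamate carriers were both higher in soleus. Slc25a22 read 8.45, 8.81 and 8.61 in WT soleus, 7.49, 7.4 and 7.02 in WT quadriceps and 7.85, 7.86 and 8.01 in vehicle heart. Soleus led quadriceps by 1.32 (SE 0.10, 2.50-fold, adjusted p = 3.26e-07), with heart between them and different from each (-0.72 against soleus, 0.60 against quadriceps). Slc25a18 read 6.89, 7.03 and 7.05 in WT soleus against 6.57, 6.27 and 6.43 in WT quadriceps, a difference of 0.56 (SE 0.07, 1.48-fold, adjusted p = 3.63e-05). Slc25a22 and Slc25a23 were the only members that passed against both muscles with heart in between, a pattern seen in 2.39% of all genes.

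The amino acid and glutathione carriers, citrin, aralar and the glutamate carriers included, had no common direction. Of the 10 tested members of that role, 4 were higher and 5 lower in heart than in soleus, where 29.6% of all genes were higher and 27.2% lower, and 5 were higher and 4 lower than in quadriceps (31.9% and 31.2% of all genes). Slc25a44, a carrier of branched-chain amino acids, was lower in heart (8.19, 7.97 and 8.14) than in soleus (8.72, 8.80 and 8.65) and lower there than in quadriceps (9.28, 9.22 and 9.11). Heart minus quadriceps was -1.10 (SE 0.08, 2.15-fold, adjusted p = 8.42e-10). Slc25a15, an ornithine carrier, and Slc25a38, which brings in glycine for haem synthesis, were lower in heart than in both muscles (-0.60 and -0.41 against soleus). Slc25a39 and Slc25a40, the paralogs that carry glutathione, were higher in heart than in both, by 0.67 and 0.49 against soleus and by 0.43 and 0.47 against quadriceps. The other probe set of Slc25a40 lay near or below the filter level on every array and gave -0.07 and -0.17 for the same comparisons, so that gene rests on a single probe set.

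Both mitoferrins were lower in heart than in quadriceps. Against soleus mitoferrin 2 passed and mitoferrin 1 did not (-0.27, adjusted p = 0.0654, passing in 2 of 15 alternatives). Slc25a37 (mitoferrin 1), known for iron import in developing red cells, read 8.57, 8.16 and 8.43 in WT soleus, 8.87, 8.78 and 9.19 in WT quadriceps and 8.22, 8.03 and 8.10 in vehicle heart. Quadriceps exceeded soleus by a log2 difference of -0.56 for soleus minus quadriceps (SE 0.11, 1.47-fold, adjusted p = 0.000722), and heart minus quadriceps was -0.83 (SE 0.12, 1.77-fold, adjusted p = 8.07e-06). Slc25a28 (mitoferrin 2), the form of other tissues, was lower in heart than in soleus (-0.30, SE 0.08, adjusted p = 0.00541) and quadriceps (-0.50, SE 0.08, adjusted p = 4.21e-05). Between the WT muscles it missed the threshold at -0.20 (adjusted p = 0.0506), and it passed in 5 of 17 alternatives, animal as a fixed block among them, with adjusted p between 0.0112 and 0.144 over all of them.

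Ucp3, the uncoupling protein of skeletal muscle, was lowest in heart. It read 10.20, 10.37 and 10.33 in WT soleus, 11.16, 10.56 and 10.98 in WT quadriceps and 8.49, 8.75 and 8.50 in vehicle heart. The groups did not overlap: soleus minus quadriceps was -0.60 (SE 0.16, 1.52-fold, adjusted p = 0.00736), heart minus soleus -1.72 (SE 0.18, 3.30-fold, adjusted p = 2.61e-07) and heart minus quadriceps -2.32 (SE 0.18, 5.0-fold, adjusted p = 2.93e-09). In KO mice soleus and quadriceps arrays overlapped, and the difference of -0.50 (adjusted p = 0.0212) was lost without KO soleus replicate 3, without KO quadriceps replicate 1 or 2, and without the array farthest in fibre markers of each muscle (the highest adjusted p over all alternatives was 0.289). The related Slc25a27 and Slc25a30 were also lower in soleus than in quadriceps (-0.35 and -0.50 in WT). All 3 tested members of this role were thus lower in WT soleus, as were 24.4% of all genes.

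The cofactor and nucleotide carriers split in WT muscle, with 3 of 8 higher in soleus and 4 lower, beside 21.3% and 24.4% of all genes. Slc25a17, a carrier of coenzyme A, FAD and NAD in peroxisomes, was higher in soleus by 0.55 (SE 0.06, adjusted p = 1.46e-05), and so was Slc25a33 by 0.46. Slc25a26, which brings S-adenosylmethionine into mitochondria, was lower by -0.47 (SE 0.05, adjusted p = 1.12e-05), as were Slc25a51, a carrier of NAD, by -0.33 and Slc25a32, linked to folate and FAD, by -0.42. Among the organic acid carriers, Slc25a1 (citrate) passed in no tissue comparison, and Slc25a10 (dicarboxylates) was higher in soleus than quadriceps (0.15) and higher in heart than either muscle (0.24 and 0.39).

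Slc25a34, whose substrate is poorly known, rose from quadriceps to soleus to heart. It read 8.16, 8.38 and 8.41 in WT soleus, 7.21, 6.94 and 7.16 in WT quadriceps and 9.61, 9.53 and 9.65 in vehicle heart, 3 separate levels. Soleus exceeded quadriceps by 1.22 (SE 0.09, 2.33-fold, adjusted p = 1.33e-07), and heart exceeded soleus by 1.28 (SE 0.10, 2.43-fold, adjusted p = 3.12e-09) and quadriceps by 2.50 (SE 0.10, 5.65-fold, adjusted p = 1.61e-13). Its relative Slc25a35 was higher in soleus than in quadriceps by 0.54 (SE 0.08, adjusted p = 0.000144) and in heart than in quadriceps by 0.57 (adjusted p = 0.000375), and did not pass between heart and soleus.

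Vehicle heart was compared with the muscles of WT mice across experiments, so tissue, experiment and treatment cannot be told apart, and both comparisons share the heart arrays. Against soleus 27 of 39 members passed, 13 higher in heart and 14 lower, while 56.8% of all genes passed (29.6% higher and 27.2% lower). Against quadriceps 25 passed, 14 higher and 11 lower, with 63.1% of all genes (31.9% higher and 31.2% lower). The share of the family that passed, 69.2% and 64.1%, lay near those of all genes. Slc25a5, Slc25a10, Slc25a13, Slc25a34, Slc25a39, Slc25a40, Slc25a42 and Slc25a46 were above both muscles in heart (20.5% of members, 23.3% of genes), and Slc25a12, Slc25a15, Slc25a25, Slc25a27, Slc25a28, Slc25a38, Slc25a44 and Ucp3 below both (20.5% and 21.1%). Another 5, namely Slc25a1, Slc25a11, Slc25a24, Slc25a41 and Slc25a47, passed against neither (12.8% of members, 27.0% of genes). All 8 endothelial markers were also higher in vehicle heart than in either muscle, with median differences of 0.64 and 1.37, and their part in these results was not tested.

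**Figure D4:**
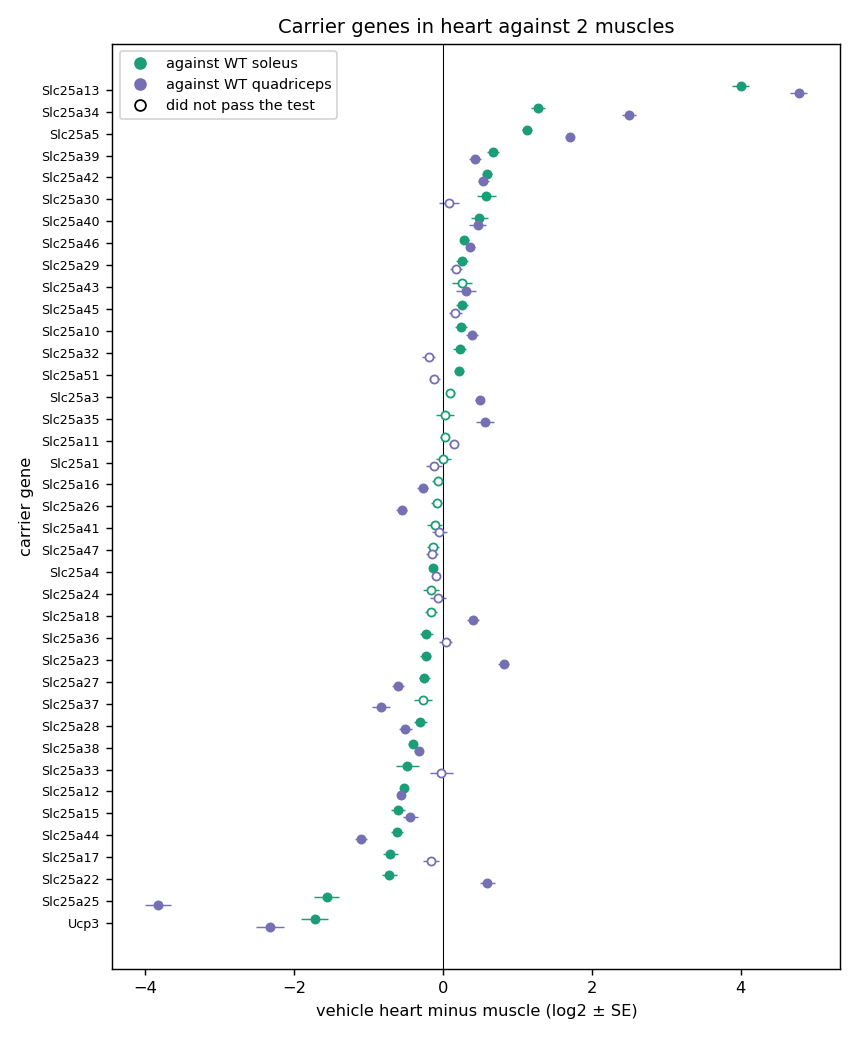
Vehicle heart minus WT soleus (green) and minus WT quadriceps (purple), log2 with SE bars, for 39 carrier genes ordered by the difference from soleus; open symbols did not pass. Slc25a13 lies at 4.0 from soleus and at least 4.41 from quadriceps, where the plotted value is the measured one, and Slc25a25 at -1.56 and -3.82.

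Genes outside the family that serve the same organelle gave a frame for the muscle difference. Beside the counts that follow, 21.3% of all genes were higher in WT soleus and 24.4% lower. Of 13 tested mitochondrial content genes, 12 were higher in WT soleus than in WT quadriceps, with a median of 0.36, and Tfam, a transcription factor of mitochondrial DNA, was lower (-0.69). Ndufs1 and Sdhb, subunits of respiratory complexes, were higher by 0.55 and 0.49. Of the 9 shuttle and energy transfer enzymes, 5 were higher and 4 lower. Mdh1 of the malate-aspartate shuttle was higher in soleus (1.01), and Gpd1 and Gpd2 of the glycerol phosphate shuttle were lower (-2.53 and -2.84). Of the 20 other mitochondrial transport genes, 8 were higher and 4 lower, led by Micu3 (-1.56), Sfxn3 (-1.20) and Micu2 (1.07). Among regulators, 8 of 10 were higher, with Esrrg at 2.42, Esrrb at 2.26 and Ppara at 1.83. Endothelial markers were higher in WT soleus too (7 of 8, median 0.65), and their part in the carrier differences was not tested.

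**Figure D5:**
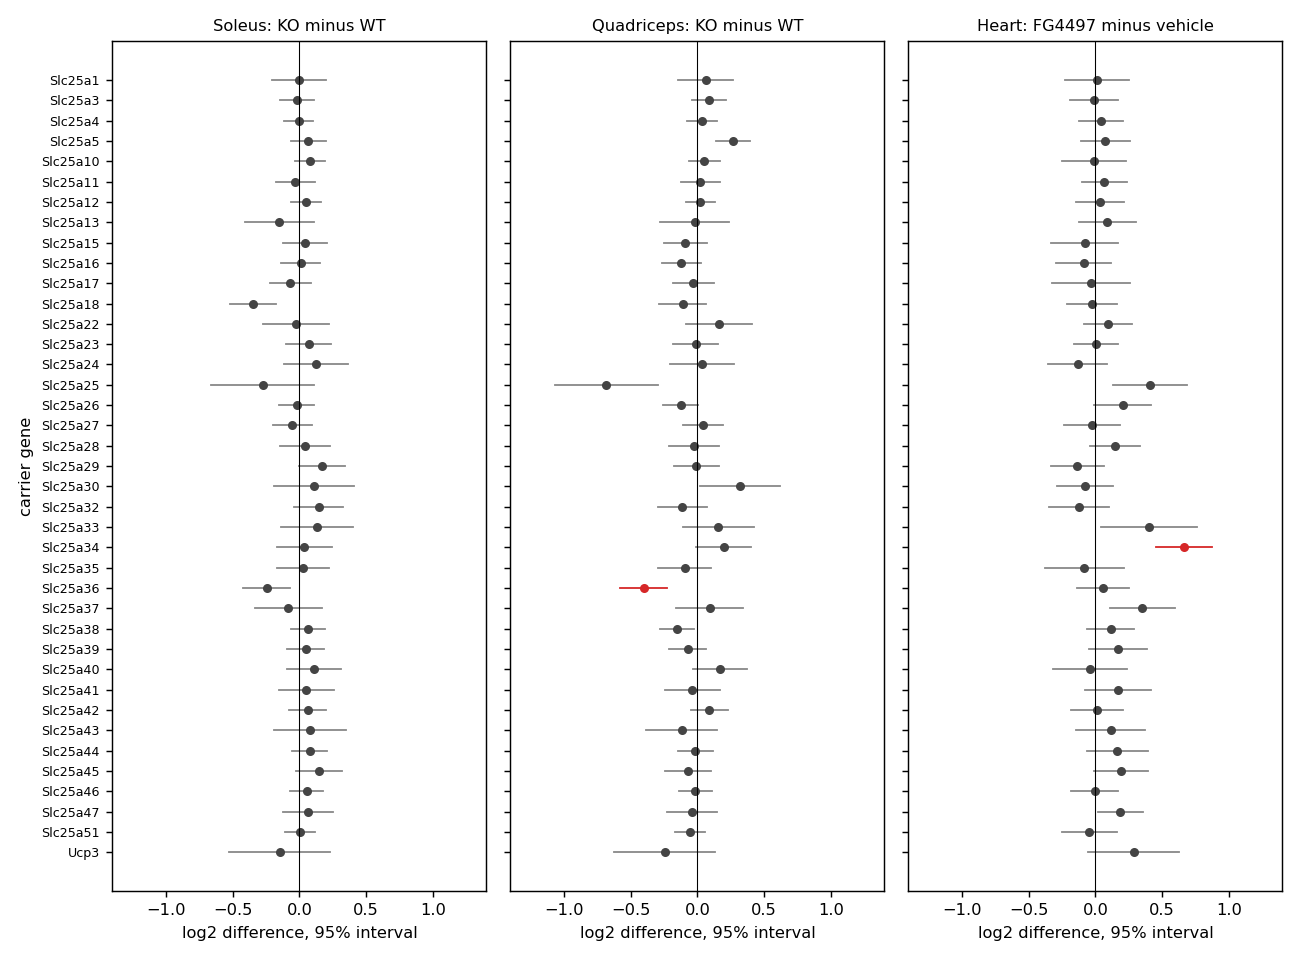
Log2 difference with its 95% interval for 39 carrier genes. KO minus WT is shown for soleus (left) and quadriceps (middle), and FG-4497 minus vehicle for heart (right). Red marks genes that passed the test. Slc25a36 passes in quadriceps at -0.40 and Slc25a34 in heart at 0.67, and most intervals include 0.

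Between EglN1 KO and WT muscles the carrier transcripts showed few measurable changes. In soleus 0 of 39 members passed, where 0.18% of all genes did (0.12% higher and 0.0601% lower); 2 members (5.13%) and 963 genes (7.23%) had an unadjusted p under 0.05 in limma. In quadriceps 1 passed, lower, against 0.683% of genes (0.278% higher and 0.405% lower), and 5 members (12.8%) and 1543 genes (11.6%) had an unadjusted p under 0.05. Averaged over both muscles 1 passed, again lower, against 0.833% of genes (0.353% higher and 0.481% lower). KO and WT arrays did not overlap for 5 members in soleus (12.2% of all genes) and for 6 in quadriceps (16.5%), shares of 39 that lay near those backgrounds. The median difference of the members was 0.04 in soleus and -0.01 in quadriceps, against 0.00 and -0.02 over all genes. None of 7 adipocyte markers passed, and their median differences were 0.32 and 0.25 in KO soleus and quadriceps. Their mean level was 8.06 to 8.93 in WT and 8.30 to 8.87 in KO soleus, and 7.61 to 8.22 in WT and 8.02 to 8.22 in KO quadriceps; their part in these values was not tested.

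Slc25a36, a carrier of pyrimidine nucleotides for mitochondrial DNA and RNA synthesis at chr9:97075281-97111041, was the member that passed. It read 10.28, 10.48 and 10.46 in WT quadriceps and 9.92, 9.93 and 10.17 in KO quadriceps, and 10.70, 10.56 and 10.73 in WT soleus and 10.40, 10.34 and 10.52 in KO soleus. On the probe set used, the KO arrays were the lower ones in both muscles, without overlap. By the label numbers both muscles come from the same mice, so the second muscle is not a separate set of animals. The difference was -0.40 in quadriceps (SE 0.08, 1.32-fold, adjusted p = 0.0462), -0.24 in soleus (SE 0.08, adjusted p = 0.445) and -0.32 averaged over both (SE 0.06, adjusted p = 0.0308). The quadriceps call was close to the threshold and was lost in 13 of 17 alternatives, among them the fit without animal as a block (adjusted p = 0.059), the fit with the slow fibre level as a covariate (0.0783), the fit without the arrays farthest in fibre markers (0.13) and the fits without any 1 of WT replicates 1, 2 and 3 or KO replicates 1 and 2, with adjusted p between 0.0128 and 0.187 over all of them. The averaged call was lost in 11 of 22, between 0.00633 and 0.095, and the sign held in each. The second probe set of the gene gave -0.27 in quadriceps and -0.10 in soleus, smaller in both. On it the KO and WT arrays did not overlap in quadriceps but did in soleus. No gene among its 20 nearest tested neighbours passed in quadriceps. FG-4497 hearts did not differ from vehicle hearts beyond error in this gene (0.06, interval -0.14 to 0.26).

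Other members reached sizable differences without passing. In quadriceps Slc25a25 was -0.68 (SE 0.18, adjusted p = 0.128), with KO arrays at 10.14, 10.16 and 9.60 below all WT arrays, and Slc25a5 was 0.27 (SE 0.06, adjusted p = 0.0734), with KO arrays at 10.91, 10.89 and 10.76 above all WT arrays at 10.63, 10.53 and 10.59. Slc25a5 passed in quadriceps under array weights and under a trended and robust prior, with a lowest adjusted p of 0.032. Slc25a30 was 0.32 there (adjusted p = 0.40) with overlapping groups. In soleus the largest difference was that of Slc25a18 at -0.35 (SE 0.08, adjusted p = 0.149; KO arrays 6.66, 6.57 and 6.70 against WT arrays 6.89, 7.03 and 7.05), followed by Slc25a25 at -0.27 (adjusted p = 0.856). Of these, Slc25a25 and Slc25a5 in quadriceps and Slc25a18 in soleus had groups that did not overlap; Slc25a30 in quadriceps and Slc25a25 in soleus had groups that did.

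Intervals for the ADP/ATP, phosphate, shuttle, iron and uncoupling carriers bound the size of a KO effect on array signal. The 95% interval of KO minus WT was -0.12 to 0.10 in soleus and -0.08 to 0.14 in quadriceps for Slc25a4, -0.15 to 0.11 and -0.04 to 0.22 for Slc25a3, and -0.06 to 0.16 and -0.09 to 0.13 for Slc25a12. For Slc25a5 it was -0.07 to 0.20 in soleus and 0.14 to 0.40 in quadriceps, where it leaves out 0. For Slc25a13 it was -0.41 to 0.11 in soleus and -0.28 to 0.24 in quadriceps. Every WT and KO quadriceps array of Slc25a13 lay below the filter level, so its interval there does not bound a change in the transcript. For Slc25a37 the interval was -0.33 to 0.17 and -0.16 to 0.34, for Slc25a28 -0.14 to 0.23 and -0.21 to 0.16, and for Ucp3 -0.53 to 0.23 and -0.62 to 0.13. Apart from Slc25a5 in quadriceps, each of these intervals includes 0.

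No gene passed for a difference of the KO effect between the muscles: 0 of 39 members and 0% of 13318 genes passed. In limma 4 members (10.3%) and 854 genes (6.41%) had an unadjusted p under 0.05. The largest differences of effects, soleus minus quadriceps, were those of Slc25a25 (0.41, adjusted p = 0.837), Slc25a32 (0.26, adjusted p = 0.773) and Slc25a18 (-0.24, adjusted p = 0.773). Outside the family, 1 of 20 other mitochondrial transport genes passed in either muscle, Abcb10, an inner membrane transporter linked to haem synthesis, at 0.42 in soleus (SE 0.07, adjusted p = 0.0472) and 0.38 in quadriceps (SE 0.07, adjusted p = 0.0412). None of the 13 mitochondrial content genes, 9 shuttle and energy transfer enzymes and 10 regulators passed in KO soleus or KO quadriceps. The unadjusted p in limma was under 0.05 for 0, 0 and 1 of them in soleus, beside 7.23% of all genes. In quadriceps it was so for 0, 1 and 1, beside 11.6% of all genes.

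In the hearts of mice given FG-4497, 1 of 39 members passed, higher, against 1.77% of all genes (1.3% higher and 0.477% lower). That member was Slc25a34, at chr4:141618819-141623891. Its vehicle arrays read 9.61, 9.53 and 9.65 and its FG-4497 arrays 10.44, 10.15 and 10.20, without overlap. The rise was 0.67 (SE 0.09, 1.59-fold, adjusted p = 0.0049), and it passed in all 14 alternatives run, with adjusted p from 5.18e-05 to 0.0246. Between KO and WT muscles the gene differed by 0.04 in soleus (interval -0.17 to 0.24) and by 0.20 in quadriceps (interval -0.01 to 0.40), neither passing. That the heart and muscle effects differ was not tested.

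FG-4497 and vehicle hearts did not overlap for 7 members, all higher with FG-4497. In either direction that is 17.9% of the members, near the 15.5% of all genes. Higher without overlap were the same 17.9% of the members, beside 8.38% of all genes. Whether these shares differ was not tested. The 7 members were Slc25a11, Slc25a25, Slc25a34, Slc25a37, Slc25a38, Slc25a45 and Slc25a47, and apart from Slc25a34 none passed. Slc25a25 read 6.97, 6.93 and 6.57 with vehicle and 7.41, 7.21 and 7.08 with FG-4497, a difference of 0.41 (SE 0.12, adjusted p = 0.177), opposite in sign to its -0.68 in KO quadriceps. Slc25a37 read 8.22, 8.03 and 8.10 against 8.24, 8.65 and 8.52, a difference of 0.35 (SE 0.11, adjusted p = 0.194). Slc25a33, the other pyrimidine nucleotide carrier, was 0.40 (SE 0.16, adjusted p = 0.369) with overlapping groups. The median over the members was 0.04, against 0.00 over all genes.

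Some markers of other cell types were higher in these hearts too. The mean of 8 endothelial markers was 9.99 to 10.05 in vehicle hearts and 10.20 to 10.31 with FG-4497, and 1 of them, Cldn5, passed (1.44, SE 0.13, adjusted p = 0.000164). The median difference of the 8 was 0.18, and the lowest, that of Tek, was -0.33 (adjusted p = 0.149). The mean of the 2 measured of 8 erythroid markers was 7.85 to 8.18 and 8.49 to 8.90, and Alas2, the first enzyme of haem synthesis in red cells, passed (0.96, SE 0.15, adjusted p = 0.00799). Their part in the values of Slc25a34 and Slc25a37 was not tested. In FG-4497 hearts the 95% intervals were -0.12 to 0.21 for Slc25a4, -0.11 to 0.26 for Slc25a5, -0.19 to 0.17 for Slc25a3, -0.14 to 0.21 for Slc25a12, -0.12 to 0.30 for Slc25a13, -0.04 to 0.33 for Slc25a28 and, the widest of these, -0.05 to 0.63 for Ucp3. None of the genes of the outside lists (20 transport, 13 content, 9 shuttle and 10 regulator genes) passed in FG-4497 hearts. In limma 1 regulator and 0 of the others had an unadjusted p under 0.05, beside 10.6% of all genes.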

How the data were processed

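The deposited values were on the log2 scale and were made by the authors with RMA, per the submitters' processing notes. The sources used here do not give its version or say which arrays it took in one run. The platform table pairs 21789 of the 35556 probe sets with a single gene and 1621 with more than 1; the other 12146 stayed unnamed. Each gene was read from the probe set with the highest mean over the 18 arrays, and coordinates come from RefSeq on GRCm38.p6. Genes whose mean lay below the 40th percentile of all probe sets were not tested.

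Tests used R 4.3.3 and limma 3.58.1 (lmFit, eBayes), with p-values adjusted over all 13318 (muscle), 13431 (heart) or 13373 (all arrays) genes. The 12 muscle arrays were fitted together, and heart against muscle on all 18, with the animal number read from the labels as a random block; limma estimated its correlation at 0.17 and 0.20. The labels do not say that the number is an animal. Same-numbered pairs deviated together at r from -0.0005 to 0.377, 4 of 6 above 0.1. The 6 heart arrays had a fit of their own. Where all arrays of a group lay below the filter level, the text gives a lower bound, "at least", taken from that level to the mean of the brighter group. With 3 arrays against 3, precision is limited by their number. On simulated data made from the soleus KO fit, 81% of genes changed by 0.5 and 98% of those changed by 1 were recovered. From the heart fit, 64% and 98% were. In each, 200 changed genes were planted, all with means at least 0.5 above the filter level, with noise independent between arrays. The soleus simulation gave 185 calls, against 24 genes passing in the measured soleus fit, and more calls loosen the adjusted cut-off. Its shares therefore do not give the power of the KO tests.

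Members and lists were chosen with earlier results of these data known. Named genes are, per comparison, up to 10 members that passed with the largest change, the 3 largest where fewer than 3 passed, a fixed set of 9 measured carriers, paralogs, and up to 3 genes of each of 4 outside lists. A ranking of members by level was planned but not made, since levels of different probe sets are not comparable. Alternatives changed the filter, normalization, probe set choice, weights, prior, block, covariate and the arrays included; 2 were added after seeing the data.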

Additional observations from a re-analysis of the deposited data

How the results depend on the processing

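The count of carriers that passed stayed within 1.5 times in soleus KO, in the KO effect difference, in both soleus against quadriceps comparisons, in FG-4497 heart and in both heart against muscle comparisons, under every alternative run. Without replicates in turn it ranged from 20 to 23 in WT soleus against quadriceps, 21 to 23 in KO, 23 to 26 in heart against soleus and 24 to 27 in heart against quadriceps, and it was 1 throughout in FG-4497 heart. In quadriceps KO the count of 1 became 0 with no filter, with the 20th percentile filter, with quantile normalization repeated, with the mean of all probe sets, with no replicate block, with the slow fibre covariate, with only the 2 groups compared and without the array farthest in fibre markers of each muscle, and it became 2 with array weights and with the trended and robust prior; leaving out replicates gave 0 to 1. Averaged over both muscles it became 0 with the mean of all probe sets, with the slow fibre covariate and without the arrays farthest in fibre markers; leaving out replicates gave 0 to 1, and with no replicate block it stayed at 1. The cause of these changes was not tested, beyond the fewer samples or the larger number of genes tested that some settings bring. With animal as a fixed replicate block the counts in soleus against quadriceps were 23 in WT and 22 in KO mice, and with the replicate number as a block the heart count stayed at 1. Leaving out the fibre arrays and choosing the brightest probe set within each fit were chosen after seeing the data. Of 1947 single carrier values under alternatives, 34 lost and 12 gained a call and 0 turned sign with a call; 45 turned sign without one. The number of arrays, 3 per group, limits the precision of each value.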
